A study of Mus musculus with 6 samples.

Results

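Imprinted genes were examined in RNA-seq of the pharyngeal region of mouse embryos at E9.5, in 3 *Pax9*-null (*Pax9*-/-) and 3 wild-type (*Pax9*+/+) embryos. A list of 40 imprinted genes was matched by symbol to the deposited table, which holds one value for each of 14647 genes in each library. The table contained 33 of the 40, and 31 of these reached the minimum average level of 0.5 RPKM and were tested among 13547 genes in all. *Meg3* and *Begain* were below that level, and *Dlk1*, *Rian*, *Rtl1*, *Dio3*, *Ascl2*, *Kcnk9* and *Gatm* were not analysed here. RPKM scales reads by gene length and by library size, so that levels can be compared between genes, and all levels below are given as log2 RPKM unless said otherwise.

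The null allele is carried in every cell from fertilisation, whereas *Pax9*, a paired-box transcription factor, is expressed in the pharyngeal endoderm. The tissue was dissected between the first arch and the base of the heart, on a C57Bl/6J background, and embryos were matched by somite number. The submitters describe the libraries as a mix of both sexes. Each value sums both parental alleles, so allele of origin was not measured, and in whole tissue fewer cells of a type and less RNA per cell cannot be told apart. That each library came from a separate embryo follows from the submitters' description of biological replicates.

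An imprinted gene is transcribed mainly from the copy inherited from one parent, because DNA methylation laid down in the egg or the sperm is kept at a control region after fertilisation. Many imprinted genes act on growth. Paternally expressed *Igf2* encodes a fetal growth factor, and the maternally expressed *Igf2r* encodes the receptor that takes this factor into lysosomes and clears it. Imprinted genes lie in clusters in which a long non-coding RNA on one allele often accompanies silence of its protein-coding neighbours, as *Airn* does for *Igf2r* and *Kcnq1ot1* for *Cdkn1c* and *Phlda2*. In this list, 22 genes are known mainly for expression from the paternal allele and 12 for the maternal allele, and 6 are imprinted only in some tissues or transcripts.

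*Pax9* itself followed the genotype labels in all 6 libraries. Its level was −0.43, −0.63 and −0.59 in *Pax9*-null replicates 1, 2 and 3, and 0.63, 0.71 and 0.96 in the wild-type replicates. The log2 fold change was −1.32 (SE 0.19, adjusted *P* = 0.0155 by limma), a level 40.1% of wild-type, and the groups did not overlap. All 10 markers of pharyngeal tissue were in the table, with a summed level between 71.5 and 81.8 RPKM in the 6 libraries, the most abundant being the epithelial gene *Epcam* with 30.4 to 38.7 RPKM.

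Libraries differed in the other tissues they held. Of 10 cardiomyocyte genes, all listed, the summed level was 74.0 RPKM in wild-type replicate 3 and between 1118 and 1477 RPKM in the other 5 libraries. *Myl7*, an atrial myosin light chain and the most abundant of them, was at 23.4 RPKM in that library and at 456 to 738 RPKM elsewhere. The same library had the highest sum of 10 neuronal genes, 183 RPKM against 64.2 to 103 RPKM, with *Tubb3* at 118 RPKM. The summed level of 10 erythroid genes was 5016 and 4566 RPKM in *Pax9*-null replicates 1 and 3 and between 2451 and 2691 RPKM in the other 4, the leading gene being *Hbb-y* (996 to 1975 RPKM). Of 8 endothelial genes the sum was 112 RPKM in wild-type replicate 1 and 63.6 to 78.8 RPKM in the other libraries, led by *Tek* (8.02 to 22.8 RPKM).

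Yolk sac, liver and placenta also express many imprinted genes strongly. Of 10 markers of visceral endoderm or liver, 3 were in the table, all with a mean under 0.5 RPKM, and their sum was at most 1.52 RPKM in any library. Of 10 trophoblast markers, 3 were in the table, with sums of 6.15, 8.35 and 6.51 RPKM in *Pax9*-null and 6.22, 4.49 and 3.31 RPKM in wild-type libraries and *Plac1* (1.36 to 2.83 RPKM) the most abundant. All 3 had positive log2 fold changes (median 0.67), and the placental hormone gene *Prl3b1* rose by 0.79 (adjusted *P* = 0.0414 by limma). The median was the value of *Hand1* (SE 0.49). *Hand1* was at −0.60 in wild-type replicate 3, the library low in cardiomyocyte genes, and at 0.68 to 1.72 in the other libraries. The part of trophoblast in the values of imprinted genes known from placenta, such as *Phlda2*, was not tested. *Xist*, the RNA that coats the inactive X chromosome, was at 0.0213 RPKM in *Pax9*-null replicate 3 and 0.0112 RPKM in wild-type replicate 3 and at 5.09 to 7.35 RPKM in the other 4, so each genotype had 1 library with almost none.

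**Figure D1:**
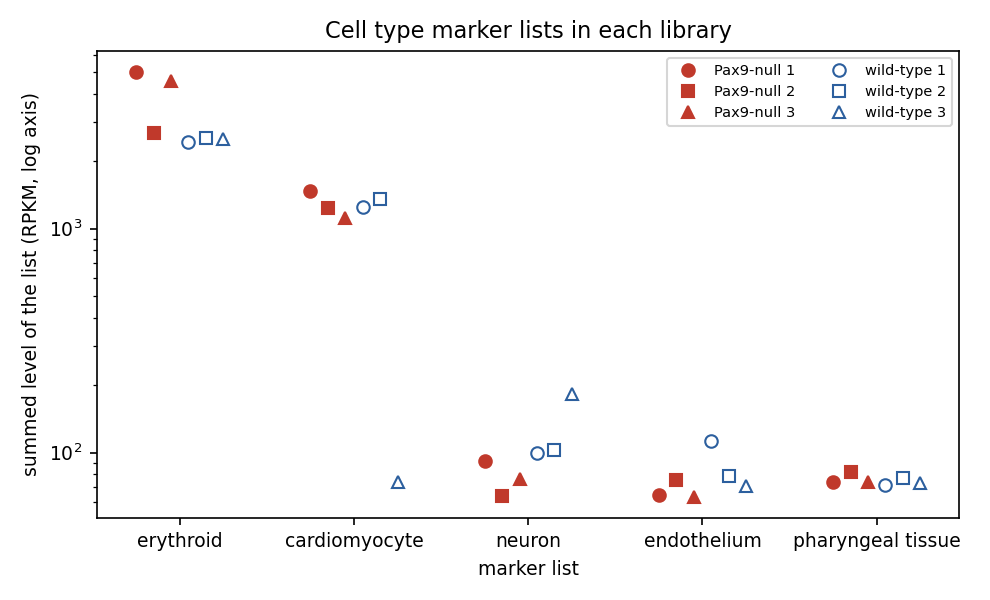
Summed level of 5 marker lists (RPKM, log axis) in each of the 6 libraries, with *Pax9*-null libraries as filled red symbols and wild-type libraries as open blue symbols, and symbol shape giving the replicate. Wild-type replicate 3 lies at 74.0 RPKM for cardiomyocyte genes, below 1118 to 1477 RPKM in the others, whereas the pharyngeal list stays between 71.5 and 81.8 RPKM.

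A minority of imprinted genes passed the threshold, and whether their share differs from that of all genes was not tested. Of the 31 tested, 5 (16.1%) had an adjusted *P* of at most 0.1 by limma, against 26.7% of all tested genes. *Mirg*, *Ube3a* and *Mcts2* rose in *Pax9*-null embryos and *Grb10* and *Trappc9* fell; over all genes 14.7% were called higher and 12.0% lower. The median log2 fold change was 0.07 over the 31 imprinted genes and −0.00 over all genes. The median size of the change without regard to sign was 0.23 for imprinted genes and 0.25 for all genes, and the median SE was 0.16 and 0.15. An unadjusted *P* under 0.05 was reached by 8 imprinted genes and by 4750 of the 13547.

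Over 19 tested paternally expressed genes the median log2 fold change was 0.08, with 11 positive and 8 negative values, and 1 gene, *Mcts2*, was called. Over 8 maternally expressed genes it was −0.03, with 4 positive and 4 negative values, and *Mirg* and *Grb10* were called in opposite directions. When wild-type replicate 1 was left out the maternal median was 0.25, and it was −0.23 both without wild-type replicate 3 and after quantile normalization. The paternal median moved to −0.00042 without wild-type replicate 2 and to −0.045 after quantile normalization. The remaining calls, *Ube3a* and *Trappc9*, came from the 4 tested genes imprinted only in some tissues. The 5 calls depended on single libraries. No imprinted gene was called when either *Pax9*-null replicate 1 or 3 was left out, omissions under which calls over all genes dropped from 3611 to 301 and 175. Under these omissions the log2 fold changes of the 5 genes, which were called from the same values, kept their signs. *Trappc9* went from −0.61 to −0.56 and −0.60, and *Grb10* from −0.35 to −0.33 and −0.31. *Mirg* went from 0.39 to 0.50 and 0.28, *Ube3a* from 0.33 to 0.25 and 0.41, and *Mcts2* from 0.36 to 0.35 and 0.29. Without wild-type replicate 1 the only call was *Trappc9* (1799 calls over all genes), and without wild-type replicate 3, the library low in cardiomyocyte genes, the calls were *Trappc9* and *Mcts2* (2141 over all genes). Without *Pax9*-null replicate 2, *Trappc9*, *Grb10* and *Mcts2* were called (3056 over all genes), and without wild-type replicate 2, *Trappc9*, *Grb10* and *Phlda2* (3578 over all genes).

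In 10 of the 31 (32.3%) the libraries of the genotypes did not overlap, against 41.9% of all tested genes. In *Airn*, *Mirg*, *Phlda2*, *Snrpn*, *Ube3a*, *Impact* and *Mcts2* all *Pax9*-null libraries were the higher, and in *Copg2*, *Grb10* and *Trappc9* all were the lower. With 3 libraries against 3 an exact two-sided permutation test of a single gene gives at best *P* = 0.1, which these 10 genes had.

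**Figure D2:**
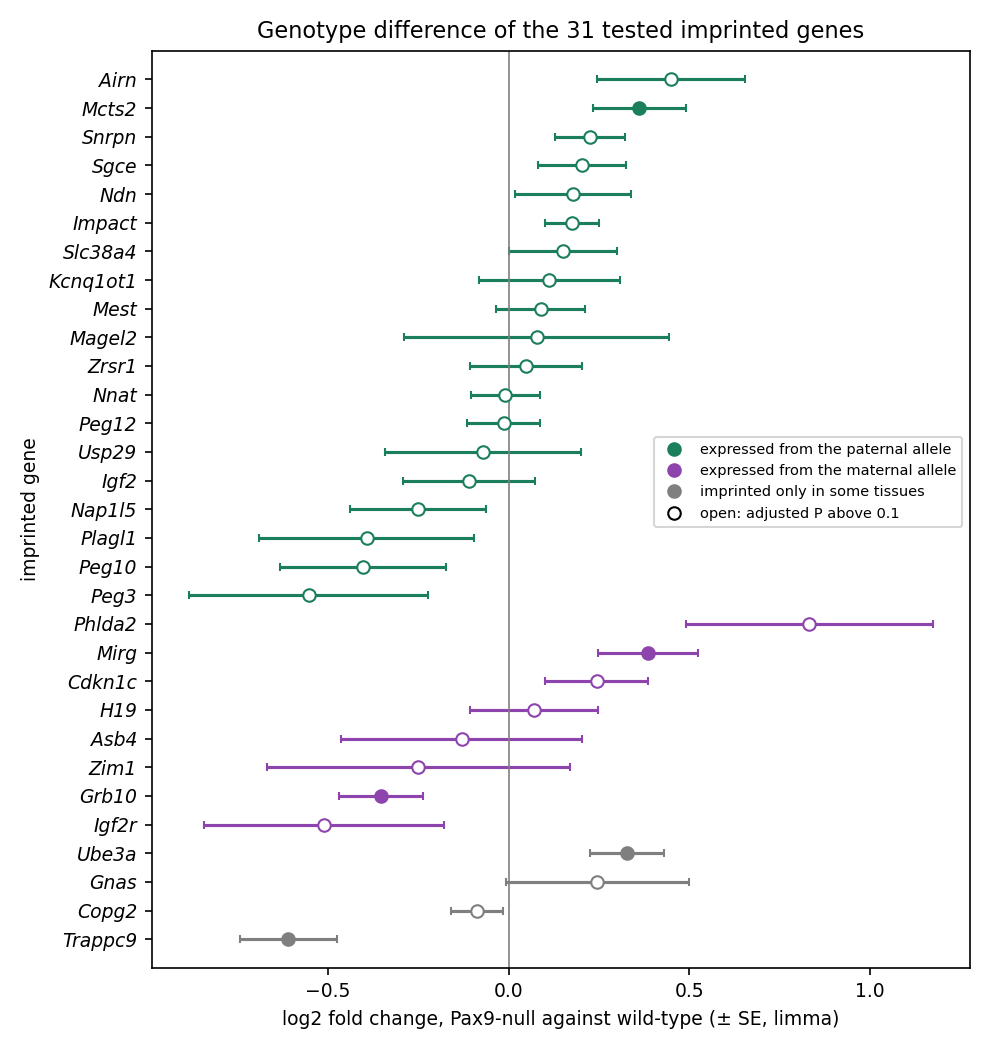
Log2 fold change of *Pax9*-null against wild-type with its SE (limma, 3 libraries each) for the 31 tested imprinted genes, coloured by the allele they are known to be expressed from, with filled points for an adjusted *P* of at most 0.1. The 5 filled points are *Mcts2*, *Mirg* and *Ube3a* above 0 and *Grb10* and *Trappc9* below 0.

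The *H19-Igf2* locus on chromosome 7 (GRCm38, *H19* at chr7:142575529-142578143 and *Igf2* at chr7:142650766-142666816, both on the minus strand) held the most abundant imprinted transcript. *H19*, a maternally expressed non-coding RNA, was at 9.09, 9.09 and 8.83 in the *Pax9*-null libraries and at 9.26, 8.90 and 8.65 in the wild-type libraries. The wild-type libraries bracketed all 3 *Pax9*-null libraries. Mean levels were 516 and 497 RPKM, and the log2 fold change was 0.07 (SE 0.18, adjusted *P* = 0.805 by limma). *Igf2* was at 6.29, 6.67 and 6.36 in *Pax9*-null libraries and at 6.94, 6.47 and 6.25 in wild-type libraries. These too overlapped, with a log2 fold change of −0.11 (SE 0.18, adjusted *P* = 0.701 by limma). Neither sign was stable. That of *H19* turned to −0.34 with quantile normalization and to −0.07 without wild-type replicate 3, and that of *Igf2* to 0.21 once trends with gene length and GC content were removed and to 0.08 without wild-type replicate 1.

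Both RNAs share enhancers, with *H19* active on the maternal and *Igf2* on the paternal copy, so their ratio was compared. The difference *H19* minus *Igf2* in log2 RPKM was 2.56 ± 0.21 in *Pax9*-null and 2.38 ± 0.05 in wild-type libraries (SD, n = 3), and the groups overlapped. In the annotation used here, 64.5% of the exon length of *Igf2* is shared with other genes, most of all with *Gm49394* on the same strand. With the default counting that the methods name, reads on more than one gene are left uncounted. The study counted on another annotation release, whose overlaps were not checked here, so whether reads of *Igf2* were lost is uncertain.

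*H19* is also the precursor of miR-675, whose mature strands are shown with bases 2 to 8, the seed that pairs with target mRNAs, in capitals (RefSeq, GRCm38.p6). The miRNAs themselves were not measured in these libraries.
mmu-miR-675-5p: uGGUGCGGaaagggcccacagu
mmu-miR-675-3p: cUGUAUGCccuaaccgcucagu

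At the *Igf2r* locus on chromosome 17 (*Igf2r* at chr17:12682406-12769664 on the minus strand, *Airn* at chr17:12741311-12860136 on the plus strand) the libraries spread widely. *Igf2r* was at 4.54, 5.03 and 4.65 in the *Pax9*-null libraries and at 6.09, 4.99 and 4.68 in the wild-type libraries. Wild-type replicate 1 stood 1.25 above the mean of the other wild-type libraries, which lay among the *Pax9*-null ones. The log2 fold change was −0.51 (SE 0.33, adjusted *P* = 0.305 by limma), −0.092 without wild-type replicate 1 and −0.16 with trends in length and GC content removed. Without wild-type replicate 3 it was −0.80.

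*Airn*, the paternally expressed antisense RNA, was at 0.90, 1.03 and 1.07 in *Pax9*-null and at 0.88, 0.57 and 0.22 in wild-type libraries. The 3 *Pax9*-null libraries were the higher, with wild-type replicate 1 just below them, and the log2 fold change was 0.45 (SE 0.20, adjusted *P* = 0.161 by limma). It was 0.28 without wild-type replicate 3, the library low in cardiomyocyte genes, and with library weights it was 0.55 and called (adjusted *P* = 0.0707 by limma). With trends in length and GC content removed it was 0.32. The difference *Igf2r* minus *Airn* was 3.64, 4.0 and 3.58 in *Pax9*-null and 5.21, 4.42 and 4.46 in wild-type libraries, with means of 3.74 ± 0.22 and 4.70 ± 0.45 (SD, n = 3). It did not overlap between genotypes, as was the case in 2 of 9 pairs of neighbouring imprinted genes. Among single tested genes 41.9% did not overlap, and pairs of other genes were not examined. The difference was given as a description with no test. Part of *Igf2r* lies within *Airn* on the opposite strand, but the annotated exons of these genes do not overlap. With the default counting named in the methods, which takes no account of strand, unspliced *Igf2r* RNA and *Airn* cannot be told apart there.

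The *Dlk1-Meg3* locus on chromosome 12 was represented by *Meg3*, *Mirg* and *Begain*. *Mirg* (chr12:109729764-109749460, plus strand), a maternally expressed non-coding RNA, was at 2.23, 2.47 and 2.66 in the *Pax9*-null libraries and at 2.09, 2.08 and 2.03 in the wild-type libraries, from 374 to 541 reads. The wild-type libraries lay within 0.06 of each other and below all the *Pax9*-null libraries. *Mirg* rose by 0.39 (SE 0.14, adjusted *P* = 0.0971 by limma), a level 1.31-fold that of wild-type. Its call was lost under 12 of 17 alternatives, over which the adjusted *P* ranged from 0.0738 to 0.244 and the log2 fold change from 0.28 to 0.68.

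*Meg3* (chr12:109541001-109571726), which is transcribed upstream of *Mirg* on the same strand and is known as an abundant RNA of embryos, had only 25 to 67 reads per library here. That level is unusually low for tissue of this stage and its cause was not tested, so it is uncertain. *Meg3* was at −3.04, −2.10 and −1.86 in *Pax9*-null and at −2.61, −3.13 and −1.75 in wild-type libraries, and the groups overlapped. As listed, its level per length was lower than that of *Mirg* by 4.79 ± 0.42 in *Pax9*-null and 4.57 ± 0.72 in wild-type libraries (log2, SD, n = 3). *Begain*, at the far side of *Dlk1* and imprinted only for some transcripts, had 8 to 16 reads and levels of −1.72, −2.58 and −2.45 in *Pax9*-null and −1.95, −1.72 and −1.75 in wild-type libraries, which overlapped.

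The RefSeq annotation places 14 miRNA hairpins, with 26 mature miRNAs, inside *Mirg*. Those that share a seed are shown, because *Mirg* was the only transcript of this locus that was tested, and it passed the threshold. Their seed is in capitals, and of the 26 miRNAs they are the only pair with the same one.
mmu-miR-453: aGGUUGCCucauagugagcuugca
mmu-miR-496a-5p: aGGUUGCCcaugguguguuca

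At the *Peg3* locus on chromosome 7 all 3 genes had negative fold changes and none passed the threshold. *Peg3* (chr7:6703892-6730431, minus strand), a paternally expressed zinc-finger gene, was at 5.58, 6.22 and 5.14 in *Pax9*-null and at 6.84, 5.97 and 5.80 in wild-type libraries. *Pax9*-null replicate 2 lay above both wild-type replicates 2 and 3. Reads were plentiful, at 5525 to 19380 in each library. The log2 fold change of −0.55 had an SE of 0.33 (adjusted *P* = 0.267 by limma), and it was −0.23 without wild-type replicate 1 and −0.30 without *Pax9*-null replicate 3 or with trends in length and GC content removed.

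*Usp29*, which starts next to *Peg3* and runs the other way, was at 1.02, 1.35 and 0.84 in *Pax9*-null and at 1.72, 0.83 and 0.88 in wild-type libraries, with a log2 fold change of −0.07 (SE 0.27, adjusted *P* = 0.874 by limma). *Zim1*, the maternally expressed zinc-finger gene of the locus, was at 1.07, 2.0 and 1.04 in *Pax9*-null and at 2.49, 1.42 and 0.95 in wild-type libraries, with a log2 fold change of −0.25 (SE 0.42, adjusted *P* = 0.701 by limma). In both genes the groups overlapped and the highest library of each genotype was the same as for *Peg3*, wild-type replicate 1 and *Pax9*-null replicate 2. Without wild-type replicate 1 the values turned positive, 0.22 for *Usp29* and 0.19 for *Zim1*. The difference *Peg3* minus *Usp29* was 4.58 ± 0.28 in *Pax9*-null and 5.06 ± 0.12 in wild-type libraries (SD, n = 3) and did not overlap, whereas *Peg3* minus *Zim1* did. With trends in length and GC content removed, the log2 fold changes of *Peg3* and *Usp29* were −0.30 and 0.076. Their difference then overlapped, with *Pax9*-null replicate 2 above wild-type replicate 3.

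At the *Kcnq1ot1* locus, also on chromosome 7, all 3 genes had positive fold changes and none passed the threshold. *Cdkn1c* (chr7:143458339-143461050), a maternally expressed inhibitor of the cell cycle, was at 7.03, 6.87 and 6.79 in *Pax9*-null and at 6.72, 6.88 and 6.36 in wild-type libraries. Wild-type replicate 3 was the lowest, and the log2 fold change was 0.24 (SE 0.14, adjusted *P* = 0.255 by limma). It was 0.098 without that library and 0.032 after quantile normalization. Of its exon length 30.7% is shared with other genes, most of all with *Gm44732* on the opposite strand. *Phlda2*, a maternally expressed gene known for limiting placental growth, was at 0.43, 1.19 and 0.49 in *Pax9*-null and at −0.74, 0.42 and −0.06 in wild-type libraries. Here the groups did not overlap, but *Pax9*-null replicate 1 and wild-type replicate 2 were 0.01 apart. These levels rested on 8 to 29 reads, and the log2 fold change of 0.83 (SE 0.34, adjusted *P* = 0.129 by limma) was the largest of the 31. Leaving out wild-type replicate 1 gave 0.53, leaving out wild-type replicate 2 gave 1.10, and a pseudocount of 1 gave 0.45.

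*Kcnq1ot1* (chr7:143203458-143296549, minus strand), the long paternally expressed RNA, was at −0.07, 0.30 and 0.12 in *Pax9*-null and at −0.11, 0.00 and 0.11 in wild-type libraries, and overlapped (log2 fold change 0.11, SE 0.19, adjusted *P* = 0.708 by limma). The fold change was 0.42 with trends in length and GC content removed, 0.022 without *Pax9*-null replicate 2 and 0.21 when replicate 1 of that genotype was left out. It lies inside *Kcnq1*, which runs the other way. The default counting named in the methods takes no account of strand, so reads from unspliced *Kcnq1* RNA and from *Kcnq1ot1* cannot be told apart. The difference *Cdkn1c* minus *Kcnq1ot1* was 6.78 ± 0.28 and 6.65 ± 0.34 (SD, n = 3) and overlapped.

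**Figure D3:**
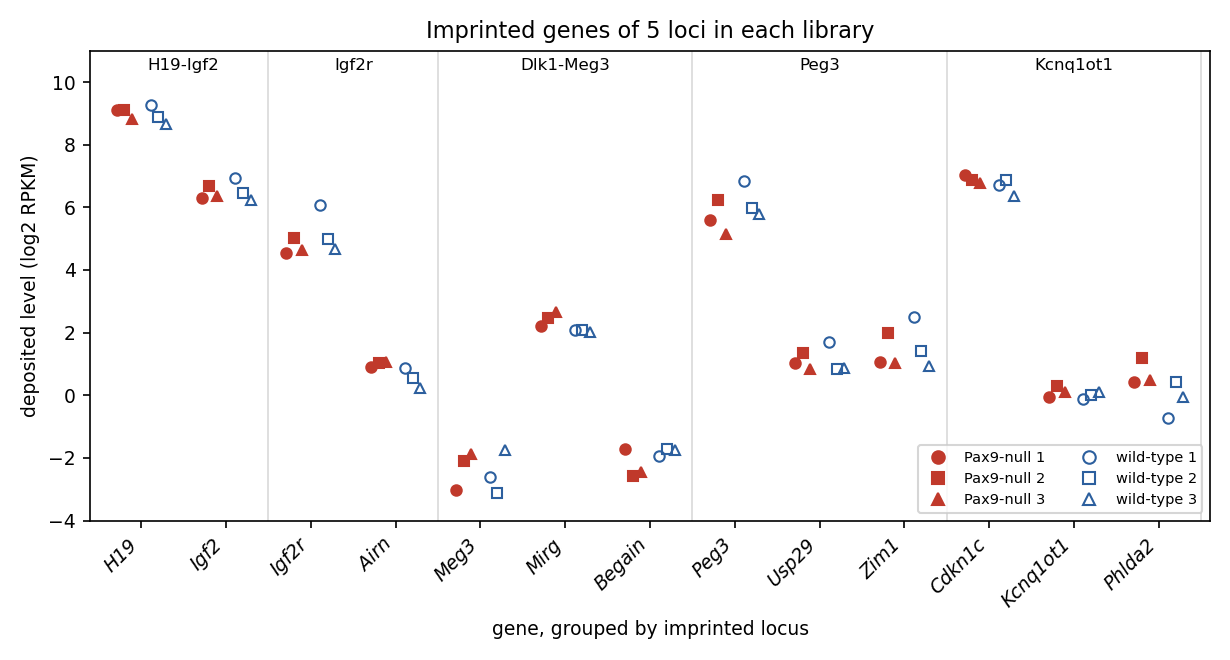
Level (log2 RPKM) of the 13 imprinted genes of 5 loci in each library, with *Pax9*-null libraries as filled red symbols on the left of each gene and wild-type libraries as open blue symbols on the right. In *Igf2r*, *Peg3*, *Usp29* and *Zim1* the open circle of wild-type replicate 1 lies above all other libraries, for *Igf2r* at 6.09 against at most 5.03.

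Outside these loci, 4 genes passed the threshold. *Grb10* (chr11:11930508-12038683), an adaptor that restrains insulin and IGF receptor signalling and is expressed from the maternal copy outside the brain, was at 6.94, 7.13 and 6.90 in *Pax9*-null and at 7.54, 7.23 and 7.26 in wild-type libraries. All *Pax9*-null libraries were lower, by a margin of 0.10 at the closest, and *Grb10* fell by 0.35 on the log2 scale (SE 0.12, adjusted *P* = 0.0807 by limma) to 0.78-fold. The value was −0.12 with length and GC trends removed and −0.61 after quantile normalization, and over 18 alternatives the adjusted *P* ranged from 0.0581 to 0.449.

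*Trappc9* (chr15:72589620-73061204), a vesicle-transport gene imprinted in brain, was at 1.30, 1.51 and 1.39 in *Pax9*-null and at 2.08, 1.90 and 2.05 in wild-type libraries. It had the widest gap between genotypes of the 5 called genes. *Trappc9* fell by 0.61 (SE 0.13, adjusted *P* = 0.0414 by limma) to 0.66-fold, and was the one imprinted gene past a threshold of 0.05. It stayed past its threshold under 13 of 17 alternatives, but was at −0.13 with length and GC trends removed. Markers of neurons, the cells in which *Trappc9* is known to be imprinted, had negative log2 fold changes in 9 of 9 tested genes (median −0.70, from −1.57 to −0.03). Of these markers 3 (33.3%) were called lower, against 12.0% of all tested genes. *Ube3a*, which is also imprinted in neurons, went the other way and rose by 0.33. The part of neurons in either result was not tested.

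*Ube3a* (chr7:59228750-59311536), a ubiquitin ligase imprinted in neurons, was at 4.34, 4.21 and 4.02 in *Pax9*-null and at 3.80, 3.87 and 3.92 in wild-type libraries. The groups did not overlap, and *Ube3a* rose by 0.33 (SE 0.10, adjusted *P* = 0.0733 by limma) to 1.25-fold. The call was lost under 11 of 18 alternatives, among them each omission of 1 library. Over all 18 the adjusted *P* by limma ranged from 0.0541 to 0.314 and the log2 fold change from 0.25 to 0.41. Of its exon length 27.3% is shared with other genes, most of all with *Gm44560* on the opposite strand. *Mcts2* (chr2:152687035-152687946), an intronless paternally expressed copy of a translation factor gene, was at 5.17, 4.99 and 5.29 in *Pax9*-null and at 4.54, 4.88 and 4.94 in wild-type libraries. The groups came within 0.05 of each other, and *Mcts2* rose by 0.36 (SE 0.13, adjusted *P* = 0.0949 by limma). With length and GC trends removed its sign turned, to −0.20, and its exons measure only 912 bases. Of the 50-base words in its transcript, 0.695% occur in other genes.

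The other 16 tested genes did not pass the threshold, although *Impact* was called with library weights and with libraries centred on their medians, and *Nnat* after quantile normalization. The paternally expressed *Peg10*, a retrotransposon-derived gene, and *Plagl1*, a growth-suppressing zinc-finger gene, had log2 fold changes of −0.40 (SE 0.23) and −0.39 (SE 0.30). *Nap1l5* was at −0.25, on 21 to 33 reads. *Snrpn* (0.23, with 34.1% of its exon length shared with other genes, most of all with *Gm38393* on the same strand) and *Ndn* (0.18), from the region lost in Prader-Willi syndrome, and *Sgce* (0.20), *Impact* (0.18) and the amino acid transporter *Slc38a4* (0.15) had positive values. The overlapping entry *Gm38393*, not in the list, rose by 0.72 (SE 0.21, adjusted *P* = 0.0606 by limma) and was called, so the level of *Snrpn* is uncertain. The abundant *Mest*, with means of 246 and 231 RPKM, was at 0.09, its neighbour *Copg2* at −0.09, and *Nnat*, with 131 and 132 RPKM, at −0.01. *Peg12* (−0.01), *Zrsr1* (0.05), *Magel2* (0.08, on 20 to 44 reads), the maternally expressed *Asb4* (−0.13) and *Gnas* (0.24, on 59 to 89 reads) complete the list. *Gnas*, which encodes a G protein subunit that most cells use, was listed at a mean of 0.52 RPKM in wild-type libraries, and 22.0% of its exon length is shared with other genes, most of all with *Gm20721*, so its low level is uncertain. *Mest* and *Copg2* overlap at their ends on opposite strands, and share 23.1% and 17.8% of their exon length with other genes, most of all with each other.

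The variation among embryos of one genotype was larger for imprinted genes than the difference between genotypes in most cases. The range over the 3 wild-type libraries exceeded the difference between genotype means in 23 of 31 genes (74.2%, against 61.6% of all tested genes), and the range over the *Pax9*-null libraries did so in 21 (67.7%, against 53.3%). The median SD over wild-type libraries was 0.26 for imprinted genes and 0.17 for all tested genes, and over *Pax9*-null libraries it was 0.18 and 0.15.

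To allow for level, the SD of each gene was ranked among the 500 genes nearest to it in mean level. Above the 90th percentile were 8 imprinted genes in wild-type and 8 in *Pax9*-null libraries. In both genotypes these included *Igf2*, *Igf2r*, *Peg3*, *Zim1*, *Peg10*, *Asb4* and *Plagl1*. *Ndn* was the eighth in wild-type libraries and *Mest* in *Pax9*-null libraries. *Peg3* lay at percentiles 97.8 and 99.4 in wild-type and *Pax9*-null libraries and *Plagl1* at 95.6 and 99.0. At the other end, *Copg2* lay at 13.4 and 2.40 and *Impact* at 18.0 and 3.40.

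**Figure D4:**
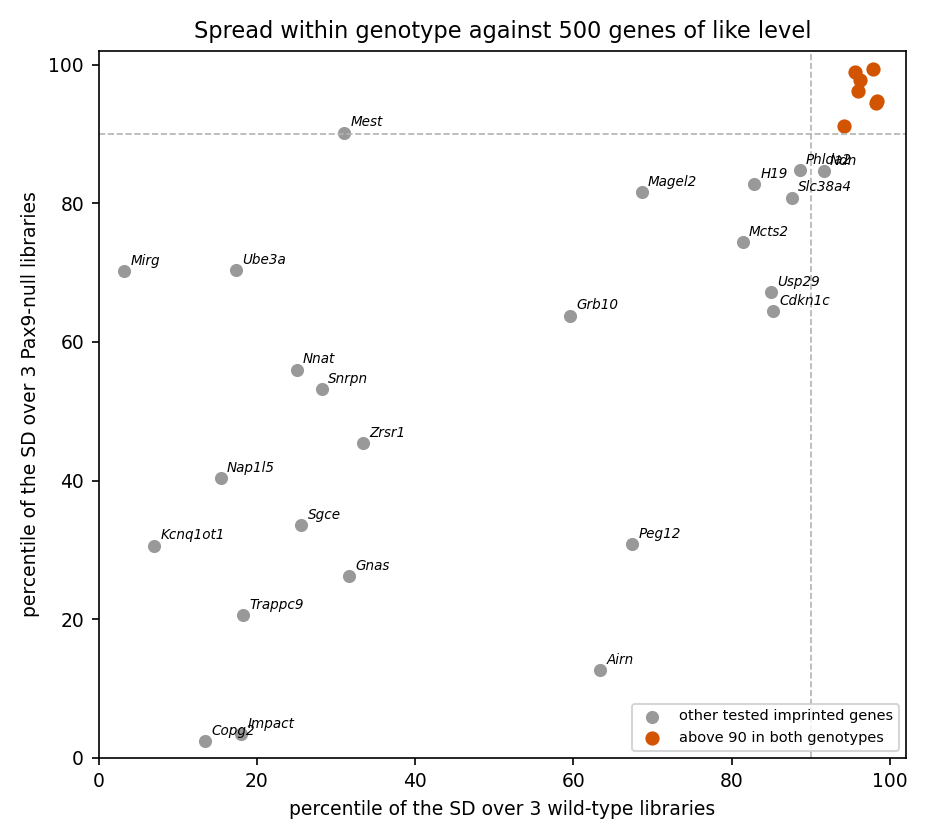
Percentile of the SD over 3 libraries among the 500 genes nearest in level, for wild-type (x axis) and *Pax9*-null libraries (y axis), with 1 point for each of the 31 tested imprinted genes and dashed lines at 90. The 7 orange points above 90 on both axes are *Igf2*, *Igf2r*, *Peg3*, *Zim1*, *Peg10*, *Asb4* and *Plagl1*.

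In size, *Zim1* spanned a 2.92-fold range over the wild-type libraries, *Asb4* 2.80-fold, *Igf2r* 2.66-fold and *Peg3* 2.06-fold. *Asb4*, a gene known from vascular differentiation, was at 5.70, 4.86 and 4.22 in wild-type replicates 1, 2 and 3 and at 4.68, 5.09 and 4.63 in the *Pax9*-null libraries. *Plagl1* was at 4.11, 3.27 and 3.25 in wild-type and at 2.93, 3.71 and 2.82 in *Pax9*-null libraries, and *Peg10* at 5.71, 4.92 and 5.15 and at 4.55, 5.22 and 4.80. In each of these genes wild-type replicate 1 and *Pax9*-null replicate 2 were the high libraries.

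The same pair of libraries was high across much of the list. Wild-type replicate 1 was the highest of its genotype in 17 of 31 imprinted genes (54.8%, against 39.0% of all tested genes) and *Pax9*-null replicate 2 in 16 (51.6%, against 34.4%). Both held in 12 (38.7%, against 22.1%), namely *H19*, *Igf2*, *Igf2r*, *Peg3*, *Usp29*, *Zim1*, *Peg10*, *Asb4*, *Grb10*, *Plagl1*, *Slc38a4* and *Trappc9*, which lie on chromosomes 6, 7, 10, 11, 15 and 17 and include genes expressed from either parental copy. *Ndn*, *Peg12*, *Nnat*, *Snrpn*, *Sgce* and *Mcts2* had the opposite order, with these libraries the lowest of their genotype. Wild-type replicate 3 was the lowest wild-type library in 13 genes (41.9%, against 28.1%).

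When trends with GC content and gene length were taken out of each library, both libraries were highest in 10 of the 31 imprinted genes (32.3%) and in 19.5% of 13524 genes. Wild-type replicate 1 was then the highest of its genotype in 18 (58.1%, against 39.6% of all genes) and *Pax9*-null replicate 2 in 12 (38.7%, against 33.8%). The 10 genes were among the 12 named above for this order, *Zim1* by 1.21 and 0.90 over the mean of the other libraries of its genotype and *Peg3* by 0.66 and 0.68. *Trappc9* and *H19* lost the order. For *Trappc9* neither library was then the highest, and for *H19* *Pax9*-null replicate 1 lay just above replicate 2. Beside this order, wild-type replicate 1 and *Pax9*-null replicate 2 also had the highest endothelial sums of their genotypes (112 and 75.7 RPKM), and the lowest neuronal sums (99.1 and 64.2 RPKM). *Pax9*-null replicate 2 had the lowest erythroid sum of its own genotype (2691 RPKM), and the wild-type erythroid sums lay close together. Both libraries also had the highest sums of the 3 trophoblast markers (6.22 and 8.35 RPKM) and of the 3 markers of visceral endoderm or liver (1.52 and 0.50 RPKM), both at low levels. Over all tested genes the deviations of these 2 libraries from the means of their genotypes correlated at 0.36, the highest of the 9 pairs of a *Pax9*-null and a wild-type library (−0.35 to 0.26 in the others). The part of these tissues in the result was not tested.

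**Figure D5:**
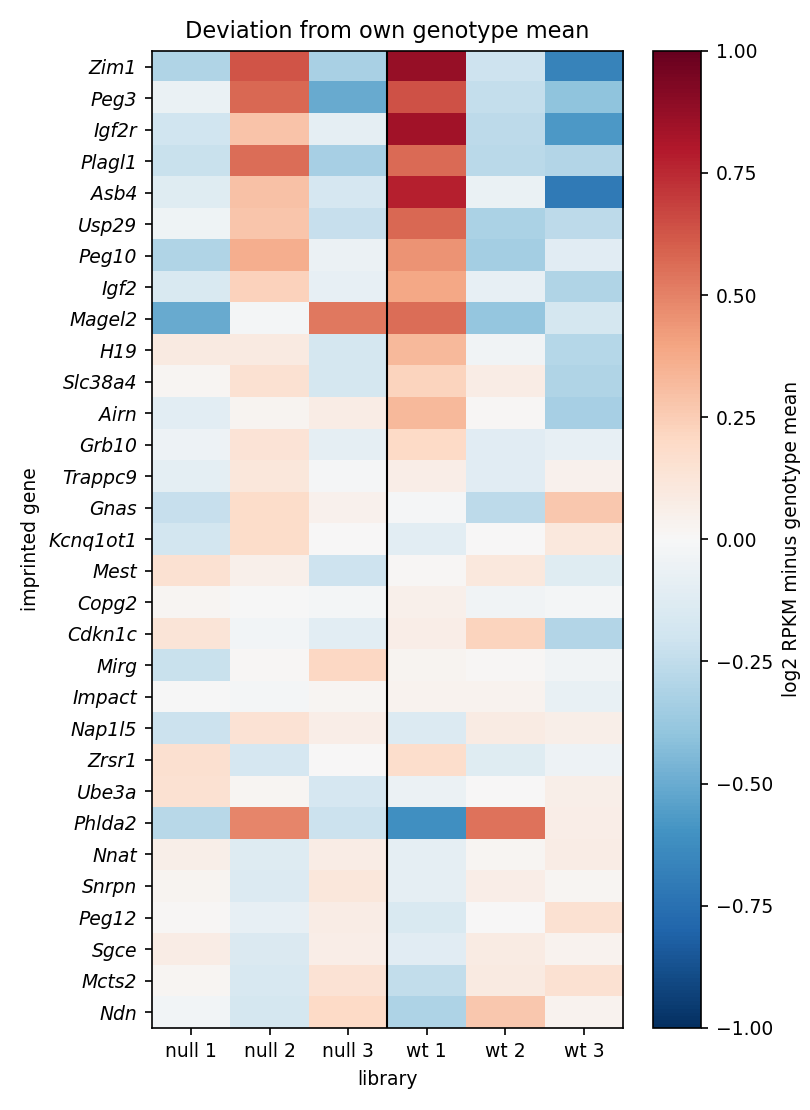
Level of each of the 31 tested imprinted genes in each library minus the mean of its genotype (log2 RPKM, colour scale from −1 to 1), ordered by the sum of the deviations of wild-type replicate 1 and *Pax9*-null replicate 2. The upper rows, from *Zim1* to *Igf2*, are red in both of these libraries, and *Ndn* and *Mcts2* at the bottom are blue in both.

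Genes for proteins that set, keep or remove DNA methylation and repressive chromatin were listed separately as imprint regulators, and of the 22 tested, 9 (40.9%) were called, against 26.7% of all tested genes. *Dnmt1*, the maintenance DNA methyltransferase, fell by 0.73 (adjusted *P* = 0.0529 by limma), from 6.12, 5.38 and 5.54 in wild-type to 4.80, 5.17 and 4.89 in *Pax9*-null libraries, which did not overlap. *Tet3*, which oxidises methylcytosine, fell by 0.62, the de novo methyltransferase *Dnmt3a* by 0.46, and the histone H3 lysine methyltransferase genes *Ehmt1* and *Ehmt2* by 0.38 and 0.36, and *Uhrf1*, which recruits *Dnmt1*, by 0.27. The Polycomb genes *Rnf2*, *Suz12* and *Eed* rose by 0.38, 0.31 and 0.29. *Zfp57*, the zinc-finger protein that protects methylated imprints, was at 2.13, 2.46 and 2.02 in *Pax9*-null and at 2.38, 2.18 and 2.31 in wild-type libraries, with a log2 fold change of −0.08 (SE 0.15, adjusted *P* = 0.716 by limma). After quantile normalization 7 regulators were called lower and 0 higher, so the calls of these rises were lost. No regulator was called without *Pax9*-null replicate 1 or 3 or with length and GC trends removed, settings that left 301, 175 and 298 calls over all genes. Without wild-type replicate 1 there were 5, of 1799 over all genes. The genotypes did not overlap in 15 of the 22 regulators (68.2%), against 41.9% of all tested genes, and the 9 called were among the 15. These 9 were called from the same values. That omission of a library turned none of their directions followed from this and is no further support.

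Of 14 tested genes that act with IGF2, 3 (21.4%) were called, against 26.7% of all tested genes. All 3 were lower, and 12.0% of all tested genes were called lower. The receptor *Igf1r*, through which IGF2 signals, fell by 0.64 (adjusted *P* = 0.0638 by limma), and the mRNA-binding *Igf2bp2* and *Igf2bp1* fell by 0.47 and 0.32. The median of the list was −0.27. None was called when wild-type replicate 1 or either of *Pax9*-null replicates 1 and 3 was left out, whereas omission of wild-type replicate 3 left 1 and that of *Pax9*-null replicate 2 gave 6. Calls over all genes in these fits were 1799, 301, 175, 2141 and 3056, in the same order. The *Pax9*-null means of *Igf1r*, *Igf2bp2* and *Igf2bp1* stayed lower under each of these omissions. Since these genes were called from the same values, this is no further support. Of 22 tested genes listed as neighbours of imprinted loci and not among the 40, 6 (27.3%) were called, a share close to the 26.7% of all tested genes, with a median of −0.05. How far each of the 22 lies from an imprinted locus was not checked here, so the list may hold genes that are not close to one. The largest changes among the 6 called were in *Dync1h1*, which fell by 0.92, and *Mrpl18*, which rose by 0.41.

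ZFP57 is known to bind the letters TGCCGC when the CpG in them is methylated, so RefSeq promoter windows, 250 bases before to 50 after each start, were searched for TGCCGC and its reverse complement GCGGCA. Of the 32 listed genes with a window, 11 (34.4%) held the letters, against 13.1% of 27025 genes. They were *Mest*, *Nap1l5*, *Nnat*, *Mcts2*, *Plagl1*, *Grb10*, *Zim1*, *Copg2*, *Igf2*, *Meg3* and *Snrpn*. The windows of imprinted genes were also richer in CpG, with a median of the highest observed-to-expected ratio per gene of 0.69 against 0.41 for all genes. Methylation and binding were not measured here, and a match describes letters only. Stretches of 60 bases before the start that overlap no annotated exon are shown for *Mest*, *Nap1l5*, *Mcts2* and *Meg3*, with the match in capitals, since *Mcts2* and *Mest* represent a called and an uncalled paternal gene and *Meg3* a maternal transcript of the locus that holds *Mirg* (GRCm38.p6). They lie at chr6:30737956-30738015 (plus strand), chr6:58907127-58907186 (minus), chr2:152686898-152686957 (plus) and chr12:109540779-109540838 (plus).
Mest: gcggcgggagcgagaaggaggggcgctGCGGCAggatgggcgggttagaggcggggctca
Nap1l5: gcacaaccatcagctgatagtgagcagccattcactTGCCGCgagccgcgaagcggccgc
Mcts2: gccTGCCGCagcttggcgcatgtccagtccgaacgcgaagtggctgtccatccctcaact
Meg3: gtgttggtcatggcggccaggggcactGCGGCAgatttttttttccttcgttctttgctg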

How the data were processed

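Imprinted genes, their parental classes and all other lists were chosen with earlier results of these data known. Per the study's methods, the authors trimmed reads, sub-sampled libraries, aligned reads to GRCm38 and counted them per Ensembl gene with featureCounts at its defaults. All exon lengths and overlaps given here came from GENCODE M21. The study names another annotation release, and overlaps in that release were not checked. The submitters' notes name Trimmomatic 0.32, STAR 2.5.1a and featureCounts 1.5.1, whereas the methods give another STAR release. The labels give the same stage and genotypes and pharyngeal arch as the source, but their protocol names sorted TECs and Smart-seq2 libraries in place of whole dissected tissue. The methods were followed, and which cells the values measure rests on them. The deposited table, read as log2 RPKM from its values, corresponds to a prior count of 0.5 and effective library sizes of 11509938 to 11728222 (*Pax9*-null) and 12352659 to 12692299 (wild-type), and 82.7% of values came out as whole reads within 0.05 at GENCODE M21 lengths.

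Genes averaging 0.5 RPKM or more were tested with limma 3.58.1 in R 4.3.3 on the deposited log2 values, two-sided, with a variance trend and Benjamini-Hochberg adjustment over all tested genes; an adjusted *P* of at most 0.1 was called. The script was tested on simulated data. Named were all genes of the 5 loci, every called imprinted gene, the other members by fold change, and called genes of other lists. Alternatives covered filters, pseudocounts (0.1, 1), scaling, library weights, length and GC trends (loess, span 0.3), a replicate block and omission of each library. Plots used Python 3.11.15.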

Additional observations from a re-analysis of the deposited data

How the results depend on the processing

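All genes called numbered 3611, and 298 with length and GC trends removed, 1335 at a threshold of 0.05, and 175 to 3578 with one library left out, with 301 and 175 when it was *Pax9*-null replicate 1 or 3. The split of calls was 1990 higher and 1621 lower, and 1433 and 1742 after quantile normalization. Imprinted genes called numbered 5, and 7 with library weights (4369 over all genes), 6 with libraries centred on their medians (3573), 4 with a pseudocount of 1 or no filter, 1 with the trends removed, 3 of the 20 tested at a mean of at least 5 RPKM (2751 of 7983 over all genes; *Trappc9* and *Mirg* were not tested there), 1 without a trend of the variance (2818 over all genes), 1 at the threshold of 0.05 and 0 to 3 with one library left out. Regulators called numbered 9 (3 higher, 6 lower), and 7 after quantile normalization (0 higher), 0 with the trends removed, 3 at 0.05 and 0 to 9 with one library left out. IGF genes called numbered 3, and 0 with the trends removed, 0 at 0.05, 1 without a trend of the variance, 5 with library weights or quantile normalization and 0 to 6 with one library left out. The median log2 fold change of paternally expressed genes was 0.08, −0.045 after quantile normalization and −0.00042 to 0.096 with one library left out, and that of maternally expressed genes −0.03 and −0.23 to 0.25. Signs turned for *H19* (−0.34, quantile normalization), *Igf2* (0.21, trends removed), *Usp29* (0.076, trends removed, and 0.091, library weights) and *Mcts2* (−0.20, trends removed). With one library left out, *H19* ran from −0.074 to 0.23, *Igf2* from −0.26 to 0.084, *Usp29* from −0.23 to 0.22 and *Zim1* from −0.58 to 0.19. The cause of these changes was not tested.

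Whether replicate numbers pair embryos is not stated. The deviations of same-numbered libraries correlated at −0.02, −0.17 and 0.26, below the 0.36 of *Pax9*-null replicate 2 with wild-type replicate 1. With 3 libraries of each genotype, these correlations cannot settle the pairing. With a replicate block, 1377 genes in all, 2 imprinted genes (*Trappc9* and *Phlda2*), 1 regulator and 0 IGF genes were called. With the replicate block and the trends removed, 153 genes in all and 0 imprinted genes, 0 regulators and 0 IGF genes were called, and the values of *Igf2*, *Usp29* and *Mcts2* were 0.21, 0.076 and −0.20. Few reads limited *Meg3*, *Nap1l5*, *Phlda2*, *Begain*, *Magel2* and *Gnas*.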
